A study of Capsella orientalis and Capsella grandiflora with 23 samples.

Results

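Endosperm of reciprocal hybrids carries the alleles of both parents in the same nuclei, so that a gene whose alleles differ in RNA according to the accession they came from, whichever accession was the mother, is described as differing in cis. Such differences are background knowledge of allele-specific RNA sequencing: regulatory DNA beside the gene acts on its own allele only, whereas factors that diffuse through the nucleus act on both. Endosperm is triploid, with 2 maternal genomes and 1 paternal genome, and a cross in both directions lets this parental dosage cancel from the comparison of accessions. The genes described here are those of the second of 2 accession pairs of Capsella grandiflora (Cg), an outcrossing, self-incompatible relative of Arabidopsis, in which plants are generally heterozygous. A gene was a member if the SNPs in its annotated exons had together at least 20 allele-assigned reads in each cross direction. Of 17269 genes with an exonic SNP in the table of this pair, 4948 (28.7%) met this rule, and they held 36166 of its 74284 exonic SNPs.

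The series holds 23 samples of Cg and the selfing C. orientalis (Co). They are leaf DNA, bisulfite-treated leaf DNA and endosperm RNA. The RNA came from endosperm dissected 6 days after pollination from a large number of seeds per replicate, so each value is an average over many pooled seeds. The Cg hybrids were AxB and BxA, and CxD and DxC, while the Co hybrids were AxB and BxA, with several libraries sequenced more than once. The labels thus name 1 Co cross, while there are 2 Co tables. They are called Co pair 1 and Co pair 2 here after the numbers in their names, and are not 2 known accession pairs. Which Co libraries went into either is not stated. Columns of the tables are named by parent and by direction number and not by accession, so which 2 Cg accessions make up pair 2 is not known. The mother of direction 1 is called the first accession here and the mother of direction 2 the second accession. Labels do not say whether 1 plant or several stood for an accession. All values are read counts at SNPs, and the files pair no gene with a name. Genes are therefore given by their interval on the authors' scaffolds, for which the sources used here give no genome build. No gene list or cell type marker could be looked up for the same reason, and the identity of the tissue was not checked against markers.

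Each direction held a single pair of allele columns. Members of Cg pair 2 had 476373 reads in direction 1 and 644594 in direction 2, with a median of 51 and 80 reads per gene. Cg pair 1 was far deeper, with 8640904 and 8501358 reads over 11042 members. Co pair 1 had 323379 and 168555 reads over 1231 members, and Co pair 2 had 492598 and 516736 reads over 2138 members. A read over more than 1 SNP entered the sums more than once, so there were fewer molecules than counts, and intervals computed from them cover counting error only.

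The accession difference of a gene was the mean of its log2 ratios of first to second accession reads in the directions, after removal of the parental offset, so that positive values mean more reads from the first accession. How the SNPs were called and how reads of either accession mapped is not stated, and the part of these steps in the values was not tested, so differences are given as reads. In Cg pair 2 the differences leaned to the second accession. Their median was -0.39 on the log2 scale, with -0.36 in direction 1 and -0.45 in direction 2, and 1641 genes lay above 0 against 3305 below it. The quartiles were -1.28 and 0.20, and the 5th and 95th percentiles were -4.14 and 1.17. A difference past 2-fold towards the first accession was found in 325 genes (6.57%), and one past 2-fold towards the second accession in 1532 genes (31.0%). Past 4-fold there were 63 genes towards the first accession and 721 towards the second. Past 16-fold there were 6 and 260. The first accession supplied 52.6% of the reads of members in direction 1, where it was the mother, and 32.6% in direction 2, where it was the father.

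Over all members, the other tables had narrower quartiles and less of a lean. Cg pair 1 had a median of -0.01, quartiles of -0.41 and 0.40, and 1059 genes (9.59%) past 2-fold towards its first accession against 1097 (9.93%) towards its second. The interquartile range was 1.49 in Cg pair 2, 0.81 in Cg pair 1, 1.06 in Co pair 1 and 0.83 in Co pair 2. The SD, which weighs the tails, did not follow that order, with 1.63 in Cg pair 2, 1.27 in Cg pair 1, 1.59 in Co pair 1 and 1.77 in Co pair 2. The median size of the difference, whatever its sign, was 0.69 on the log2 scale (1.61-fold) in Cg pair 2, against 0.40 in Cg pair 1, 0.52 in Co pair 1 and 0.42 in Co pair 2. The tables share no accession labels and differ in depth, so the contrast between them was described and not tested. As the labels name 1 Co cross only, Co pair 1 and Co pair 2 do not count as separate accession pairs.

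**Figure D1:**
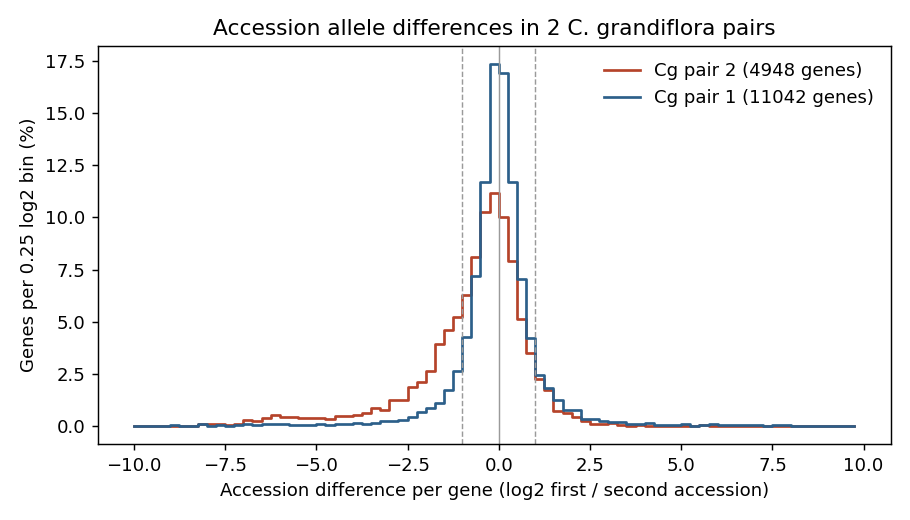
Distribution of the accession difference per gene (log2 of first over second accession, horizontal axis) as the percentage of genes in each bin of 0.25 (vertical axis), for Cg pair 2 (red) and Cg pair 1 (blue). Dashed lines mark 2-fold. The curve of pair 2 has a long shoulder on the left that pair 1 lacks, with 31.0% of its genes past 2-fold towards the second accession and 6.57% past 2-fold towards the first.

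The directions are separate crosses and give each difference 2 times. In 3124 of the 4948 genes (63.1%) both directions lay on the same side of 0, 837 of them towards the first accession and 2287 towards the second. In 112 genes both directions exceeded 2-fold towards the first accession, and in 945 both exceeded 2-fold towards the second. In 226 genes they exceeded 2-fold in opposite senses. Across the 4948 genes, Pearson's r between the directions was 0.51 and Spearman's rho 0.40, as a description over genes that are not independent and whose values in a direction share a library. Agreement was weaker in genes with more SNPs. With 5 or more exonic SNPs (2764 genes) Pearson's r was 0.27, and 59.8% had both directions on the same side. With 9 or more (1329 genes) these values were 0.16 and 56.7%. Over all members, the deviation of the directions from their mean had an SD of 0.95, against an SD of 1.63 for the accession difference itself. This deviation mixes a gene's own parental bias beyond the offset with the spread between libraries. Read counting alone gave a median standard error of 0.30 per gene.

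**Figure D2:**
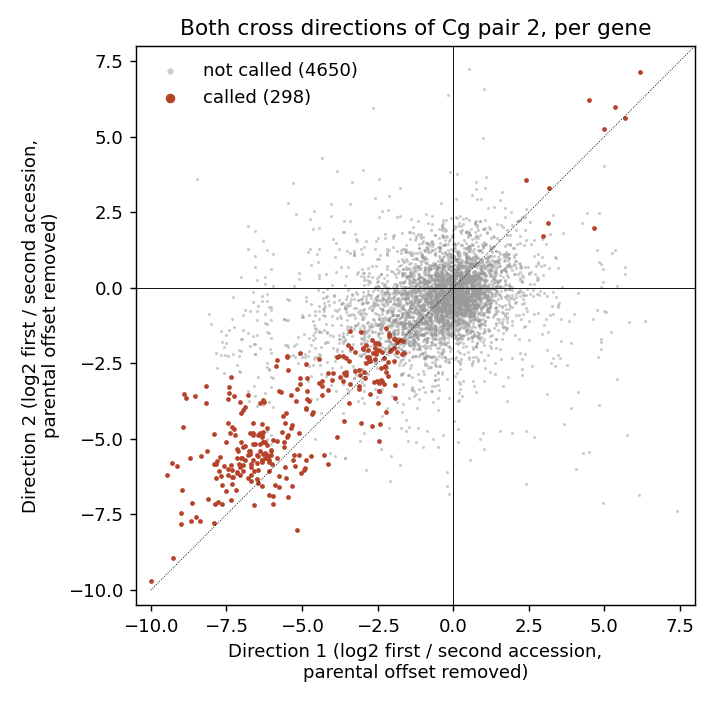
Log2 ratio of first to second accession reads in direction 1 (horizontal axis) and direction 2 (vertical axis) for each of the 4948 genes of Cg pair 2, with the parental offset removed; the dotted line marks equal values. Red points are the 298 genes that passed the test, of which 288 lie at the lower left and 10 at the upper right.

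The test asked whether the accession alleles of a gene differed beyond what the directions and the spread across genes allowed. edgeR's quasi-likelihood test called 298 of 4948 genes (6.02%) at an adjusted p of 0.05, 10 (0.202%) with more reads from the first accession and 288 (5.82%) with more from the second. At an unadjusted p under 0.05 it gave 918 genes. The same test called 0 of 11042 genes in Cg pair 1 (0.0%), where 1899 had an unadjusted edgeR p under 0.05. It called 58 of 1231 in Co pair 1 (4.71%), 30 towards the first and 28 towards the second accession, and 0 of 2138 in Co pair 2 (0.0%), with 301 at an unadjusted p under 0.05. One residual degree of freedom per gene was left, so each p-value leans on the spread of all genes of its table. For the same reason counts of calls do not rank the tables by the size of their differences. Both Co counts belong to the 1 Co cross that the labels name. The count fell to 70 of 2445 tested genes with at least 50 reads in each direction and was 544 of 7176 with at least 10. It fell to 10 of 4329, of which 1 was towards the first accession and 9 towards the second, when SNPs read from 1 accession only were left out. Fitted alone, the 2764 genes with 5 or more exonic SNPs gave 1 call, although 4 of the genes called towards the first accession and 56 of those called towards the second had that many, and their values were the same in both fits.

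Genes called towards the second accession often had almost no reads from the first. Their median difference was -5.43 on the log2 scale with 0.5 reads added to each sum, and -3.82 when the genes without any first accession read were set at the floor of 3 reads per direction. Of the 288, 83 had no read of the first accession in either direction and 148 had it in under 2% of their reads. The 10 called towards the first accession had a median of 4.22, or 3.27 with the 1 gene that lacked second accession reads at its floor. Among the 205 other genes called towards the second accession the differences ran down to -8.04. The smallest called difference towards the second accession was -1.71.

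How many SNPs a gene had went with its difference. Genes with 1 exonic SNP (428) had a median of -1.05, those with 2 (584) -0.97, those with 3 or 4 (1172) -0.61, those with 5 to 8 (1435) -0.36, those with 9 to 16 (921) -0.16, and those with 17 or more (408) 0.05. The share past 2-fold in either sense went down along the same order, with 55.6% at 1 SNP, 34.6% at 5 to 8 and 14.5% at 17 or more. Genes past 2-fold towards the first and second accession numbered 21 and 217 at 1 SNP, but 39 and 20 at 17 or more SNPs. The called share was 23.6% at 1 SNP, 11.6% at 2 and 0.49% at 17 or more, against 6.02% over all members. In Cg pair 1 the medians of the same classes all lay between -0.02 and 0.03. The part of SNP number in the lean of pair 2 was not tested.

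**Figure D3:**
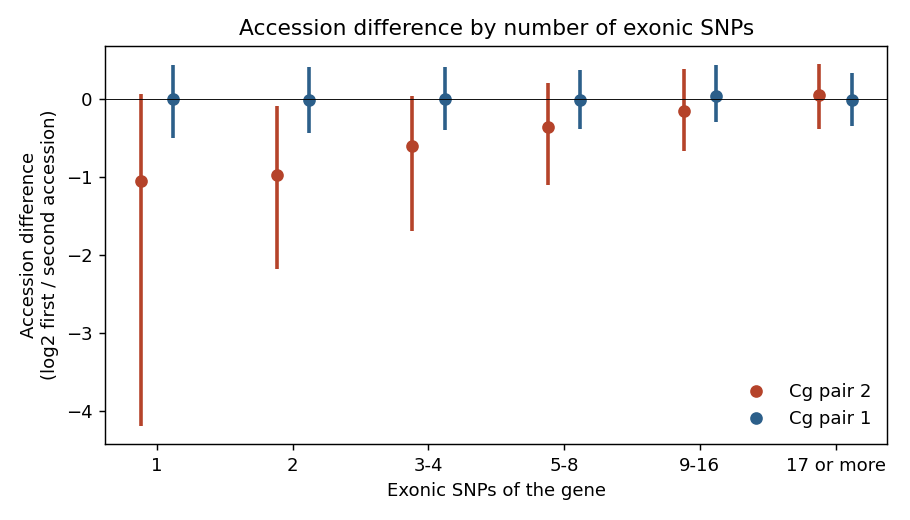
Median accession difference (points) and quartiles (bars) on the log2 scale by the number of exonic SNPs of the gene, for Cg pair 2 (red) and Cg pair 1 (blue). The medians of pair 2 run from -1.05 at 1 SNP to 0.05 at 17 or more, while those of pair 1 stay between -0.02 and 0.03.

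Depth moved with the difference less than SNP number did. Over quartiles of reads per gene, from fewest to most, the median was -0.65, -0.40, -0.35 and -0.28. Genes with 1 or 2 SNPs had a median of -0.98 below their median of reads and -1.0 above it. For genes with 9 or more SNPs these medians were -0.08 and -0.10. Genes whose shallower direction had 20 to 24 reads, just inside the rule (688), had a median of -0.58 and an interquartile range of 1.82. Those with 15 to 19 reads, just outside it (852), had -0.43 and 1.99. Quartiles of gene length, from shortest to longest, had medians of -0.48, -0.36, -0.30 and -0.41.

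Restricting both Cg pairs to like genes brought their spreads closer. With 9 or more exonic SNPs, Cg pair 2 (1329 genes) had a median of -0.09, an interquartile range of 0.96 and 21.1% of genes past 2-fold, against 0.01, 0.71 and 17% in Cg pair 1 (1367 genes). With 40 to 400 reads in all, 306 genes of pair 2 were past 2-fold towards its first accession and 1399 towards its second (39.3% together). Pair 1 had 670 and 666 such genes (30.1%). With 5 or more SNPs at any depth, the shares past 2-fold were 28.1% of 2764 genes in pair 2 and 17.6% of 3700 in pair 1. With 5 or more SNPs and 40 to 400 reads together, they were 29.7% of 2320 genes in pair 2 and 38.8% of 901 in pair 1. In these last genes the deviation of the directions from their mean also spread more in pair 1. Its interquartile range was 0.90 in pair 2 and 1.13 in pair 1. The order of the Cg pairs thus turned round where both limits were set. A lean in genes with 9 or more SNPs was larger in Co pair 1 (117 genes) than in Cg pair 2, with a median of -0.46. There 5 genes were past 2-fold towards its first accession and 26 towards its second. Co pair 2 (118 genes), for which the labels name the same cross, had a median of -0.07. The Co tables thus did not share a lean of that size.

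The lean was present on each of the 8 scaffolds with most genes. The medians of scaffolds 1 to 8 were -0.34, -0.24, -0.42, -0.44, -0.42, -0.53, -0.32 and -0.42. Of 109 windows of 1 Mb with at least 20 genes, 102 had a median below 0 and 7 above it. The lowest was -1.39 on scaffold 5 from base 12000000 to 12999999 (28 genes), where 2 genes exceeded 2-fold towards the first accession and 16 towards the second. A window of scaffold 8 from 6000000 to 6999999 (47 genes) followed at -1.37, with 2 and 28. The highest median was 0.20, on scaffold 4 from 5000000 to 5999999 (29 genes). The correlation of neighbouring genes was weak, with Pearson's r between 0.04 and 0.13 on the scaffolds.

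The lean was then followed at single SNPs. In members of pair 2, 5164 exonic SNPs in 2367 genes had at least 20 reads in each direction. The first accession allele had a median share of 60.4% of the reads at these SNPs in direction 1 and 28.6% in direction 2, against 66.9% and 33.2% in pair 1. At 430 of them (8.33%) it made up under 2% of the reads in both directions, while the second accession allele did so at 11 (0.213%). In pair 1 the numbers were 342 (1.00%) and 180 (0.528%) of 34089. Most SNPs of pair 2 thus formed a broad peak near that of pair 1, and a separate class carried almost no first accession reads.

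**Figure D4:**
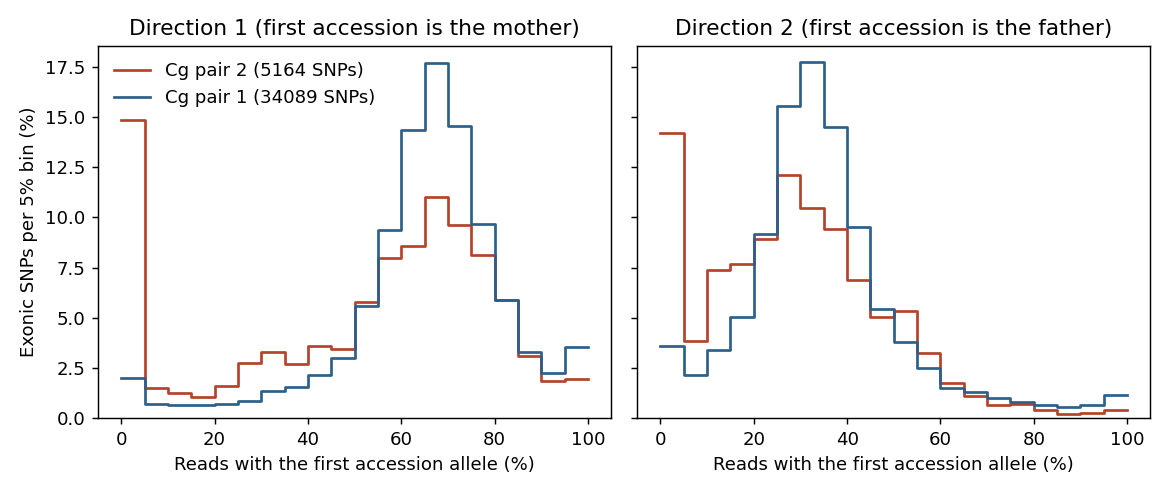
Share of reads with the first accession allele (horizontal axis, %) at exonic SNPs with at least 20 reads in each direction, as the percentage of SNPs per bin of 5% (vertical axis), in direction 1 (left) and direction 2 (right), for Cg pair 2 (red) and Cg pair 1 (blue). In both directions pair 2 has a second peak in the lowest bin, beside a main peak at about the place of that of pair 1.

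The SNPs of a gene often disagreed. In 1158 genes with 2 or more such SNPs, the SD of SNP values within a gene was 1.70 on the log2 scale, against 2.11 over all those SNPs, and the corresponding values in Cg pair 1 were 1.03 and 1.32. The range between the SNPs of a gene had a median of 1.52 in pair 2 and 0.90 in pair 1, and it exceeded 16-fold in 270 genes of pair 2 (23.3%) and 510 of pair 1 (7.78%). Of the 240 genes with a SNP that was read almost only from the second accession, 13 had only such SNPs. In the other 227, the remaining 546 SNPs had a median of -0.27 and quartiles of -1.67 and 0.32. Pairs of neighbouring SNPs at most 20 bases apart, which short reads often cover together, differed by more than 16-fold in 38 of 757 pairs (5.02%) in pair 2 and 44 of 6047 (0.728%) in pair 1. Members of pair 2 had a median of 51 and 80 reads in the directions, against 291.5 and 283 in pair 1. The part of depth in these contrasts was not tested. Genes in which SNPs read from 1 accession only held most of the reads made up 5 of the 10 called towards the first accession (50%) and 131 of the 288 called towards the second (45.5%), against 5.96% of genes not called. A large difference itself leaves SNPs without reads of the lower allele, so leaving such SNPs out selects on the outcome. Without them 183 of the 288 still met the rule, with a median of -3.43, against -3.80 with all SNPs, and 177 of these stayed past 2-fold towards the second accession. Of the 10 called towards the first accession 7 still met the rule and all 7 stayed past 2-fold.

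An interval on scaffold 1 (903630 to 905482, minus strand) shows such a mixture at 8 SNPs. Its gene sum was 392 first against 315 second accession reads in direction 1 and 162 against 363 in direction 2, a difference of -0.42 ± 0.13 (SE over n = 2 directions), close to the median of all genes. Of its SNPs, 6 had values between 0.34 and 0.58, while those at positions 903804 and 904114 had -6.38 and -6.16. At position 904107 the first accession had 89 reads and the second 23 in direction 1, and 27 and 49 in direction 2. Only 7 bases away, at 904114, the first accession had 1 read and the second 117 in direction 1, and 1 and 97 in direction 2. A scaffold 4 interval with 9 SNPs (6080636 to 6081947, minus strand) was alike, with SNP values from -5.22 to 0.41 behind a gene value of -0.85 ± 0.70 (SE, n = 2).

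In some genes every well-read SNP pointed the same way. Among 618 genes with 3 or more SNPs of at least 20 reads in each direction, all such SNPs lay towards the first accession in 64 and towards the second in 150 (34.6% together). All exceeded 2-fold towards the first accession in 2 genes and towards the second in 52 (8.74% together). They are described as a set chosen after their values were seen. An interval on scaffold 8 (8660711 to 8665767, plus strand) had 31 first and 557 second accession reads in direction 1, and 24 and 503 in direction 2. Its 7 SNPs lay between -7.58 and -1.38, and its difference was -4.25 ± 0.50 (SE, n = 2; edgeR adjusted p = 0.00283, or 0.0681 among genes with 5 or more SNPs). Less extreme was a gene on scaffold 7 (16448935 to 16451068, minus strand), with 414 against 864 reads in direction 1 and 282 against 1451 in direction 2. Both alleles were well covered in each direction, and it differed by -1.71 ± 0.04 (SE, n = 2; edgeR adjusted p = 0.0311), with 6 SNPs from -4.10 to -1.18. Its adjusted p was 0.17 without the direction block, and it ranged from 0.000751 (DESeq2) to 0.224 (edgeR, at least 1 read in each direction) over the alternatives. On scaffold 8 (6702965 to 6704927, plus strand) 55 first and 188 second accession reads in direction 1, and 27 and 265 in direction 2, gave -2.52 ± 0.14 (SE, n = 2; edgeR adjusted p = 0.0178). Its call was lost with at least 50 reads (edgeR adjusted p = 0.0513), with its most-read SNP (0.187), without SNPs read from 1 accession only (0.126) and among genes with 5 or more SNPs (0.168). Towards the first accession, an interval on scaffold 5 (1274297 to 1275518, plus strand) had 70 against 12 and 206 against 117 reads and a difference of 1.65 ± 0.23 (SE, n = 2), which missed the threshold (edgeR adjusted p = 0.10).

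Among called genes with at least 50 reads in each direction and 3 or more exonic SNPs, the largest difference towards the second accession was on scaffold 6 (2934104 to 2934890, plus strand). The first accession had 2 reads and the second 542 in direction 1, and 2 and 795 in direction 2. This put the first accession at 0.368% (95% Wilson interval 0.101 to 1.33%) and 0.251% (0.0688 to 0.91%), a difference of -8.04 ± 0.34 (SE, n = 2; edgeR adjusted p = 0.00102). All 5 of its well-read SNPs lay between -8.18 and -5.62. The same interval in Cg pair 1, over 7392 reads, differed by -0.22 between other accessions. Next came a gene on scaffold 4 (12230559 to 12232746, minus strand) with 0 against 205 and 1 against 127 reads, at -7.55 ± 1.75 (SE, n = 2; edgeR adjusted p = 0.00311), a value that depends on the 0.5 reads added. The first accession had a share of up to 1.46% by the floor in direction 1, and 0.781% (95% Wilson interval 0.138 to 4.29%) in direction 2.

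Both accessions were not always detectable. On scaffold 2 (10071410 to 10074104, plus strand) the first accession had 0 of 57 and 0 of 56 reads, which allows shares of up to 5.26% and 5.36%. Its reads from the second accession were at least 18.8-fold higher, counting 3 reads per direction as the floor. On scaffold 3 (14967676 to 14968622, minus strand) the first accession had 0 of 52 and 0 of 58 reads, and the second was at least 18.3-fold higher. Both were called by edgeR (adjusted p = 0.0129 and 0.0139) but not by DESeq2 (adjusted p = 0.364 and 0.324). They rank above the next 4 genes with 0.5 reads added, at -6.83 and -6.79, but their floors of -4.24 and -4.19 lie closer to 0 than the values of those 4. Over the alternatives their adjusted p ranged from 1.98e-07 to 0.364 and from 3.43e-07 to 0.324.

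Another 4 genes completed the 8 with the largest differences towards the second accession by the values with 0.5 reads added. The deepest of them, on scaffold 6 (12813752 to 12817440, plus strand), had 5 first and 756 second accession reads in direction 1, and 15 and 1141 in direction 2, a difference of -6.65 ± 1.06 (SE, n = 2; edgeR adjusted p = 0.0015). It differed by -0.33 in Cg pair 1. One on scaffold 1 (7632291 to 7635590, plus strand) had 3 against 123 and 1 against 172 reads, at -5.99 ± 0.24 (SE, n = 2; edgeR adjusted p = 0.00264). In Cg pair 1 it differed by -8.22 over 2631 reads, in both directions, without passing the test there (edgeR adjusted p = 0.252). One on scaffold 8 (1513378 to 1514898, minus strand) had 1 against 235 and 6 against 282 reads, at -6.37 ± 1.54 (SE, n = 2), and -1.89 in Cg pair 1. The last, on scaffold 6 (5593479 to 5596601, plus strand), had 0 against 148 and 12 against 240 reads. Its log2 ratio was -6.24 or lower in direction 1, by the floor of 3 reads, and -3.65 in direction 2.

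**Figure D5:**
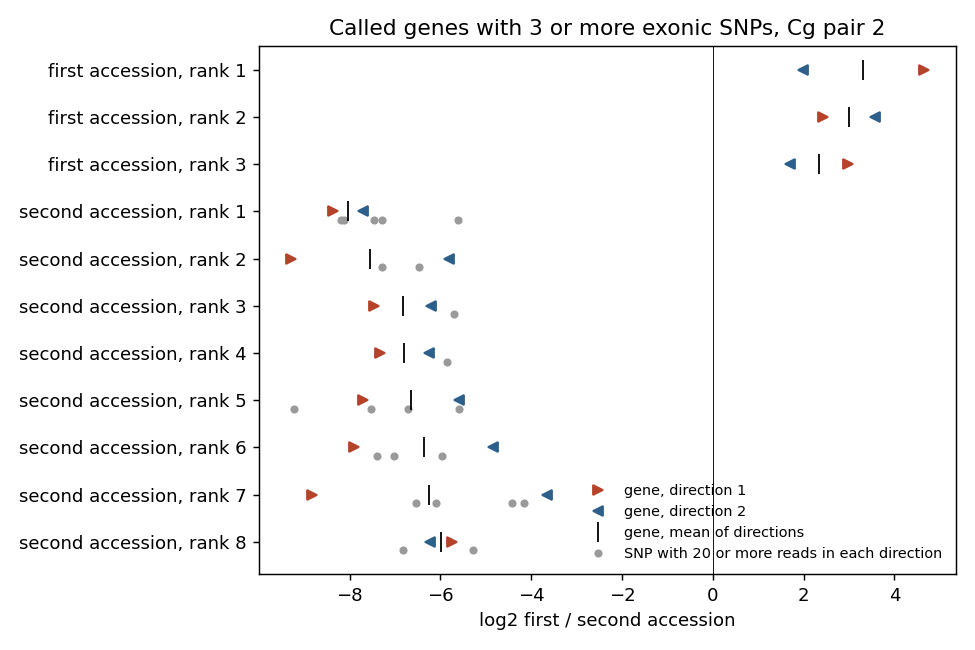
The called genes with at least 50 reads in each direction and 3 or more exonic SNPs that had the largest differences towards each accession (3 passed towards the first and 8 are shown for the second), on a log2 axis of first over second accession. Triangles are the gene values in direction 1 (red) and direction 2 (blue), black bars their mean, and grey points single SNPs; all SNP values of the genes higher from the second accession lie below -4.

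All 10 genes called towards the first accession were looked at, since they are so few. The largest difference was on scaffold 3 (8760183 to 8760667, minus strand), where the first accession had 277 reads and the second 2 in direction 1, and 228 and 2 in direction 2. This gave 6.65 ± 0.47 (SE, n = 2; edgeR adjusted p = 0.0014), with both SNPs above 5. On scaffold 1 (10416120 to 10418053, plus strand) 197 first and 14 second accession reads in direction 1, and 163 and 25 in direction 2, gave 3.22 ± 0.07 (SE, n = 2; edgeR adjusted p = 0.00914) at a single SNP. Both alleles were read in each direction there, and the directions gave 3.16 and 3.29. The 3 with at least 50 reads in each direction and 3 or more SNPs were on scaffold 4 (1680482 to 1684500, minus strand), scaffold 7 (9253104 to 9254894, minus strand) and scaffold 8 (1163667 to 1169265, minus strand). Their differences were 3.32 ± 1.33, 3.0 ± 0.57 and 2.35 ± 0.64 (SE, n = 2 each). With the same values, each lost its call when only genes with at least 50 reads in each direction, or with 5 or more SNPs, were tested. Calls were also lost on scaffold 4 with SNPs that had reads in both directions (edgeR adjusted p = 0.0618) and without SNPs read from 1 accession only (0.364). The one on scaffold 7 lost its call with the 2 to 1 dosage offset (edgeR adjusted p = 0.0574), and that on scaffold 8 without the direction block (0.14) and without SNPs read from 1 accession only (0.568). The one on scaffold 8 spread its 393 first against 32 second accession reads in direction 1, and 911 against 427 in direction 2, over 170 SNPs, none of which had 20 reads in each direction. Of these SNPs 99 were read from 1 accession only, and its difference was 1.00 without them. The genes on scaffolds 4 and 7 likewise had no SNP with 20 reads in each direction. SNPs read from 1 accession only made up 61 of 91 on scaffold 4 and 9 of 11 on scaffold 7. Without such SNPs the scaffold 7 gene no longer met the read rule.

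Differences of the 6 most deeply read genes ran from -1.35 to 0.30. The deepest, on scaffold 7 (8210379 to 8217976, minus strand), had 172 exonic SNPs and 1936 first against 921 second accession reads in direction 1, and 1072 against 2498 in direction 2. Its difference was -0.07 ± 0.53 (SE, n = 2), and of its 34 well-read SNPs 2 exceeded 2-fold towards the first accession and 3 towards the second. Next, on scaffold 5 (7192366 to 7192653, plus strand), were 958 against 1529 and 593 against 2429 reads. That gene differed by -1.35 ± 0.07 (SE, n = 2), with an edgeR adjusted p of 0.059. The adjusted p ranged from 0.00643 (DESeq2) to 0.489 (edgeR, at least 1 read in each direction) over the alternatives. Scaffold 1 held a further one (10658723 to 10661447, plus strand), with 1137 against 1704 and 341 against 1245 reads, which differed by -1.23 ± 0.03 (SE, n = 2; edgeR adjusted p = 0.0876, between 0.0195 with DESeq2 and 0.602 without the block), and 5 of its 6 SNPs exceeded 2-fold towards the second accession. On scaffold 8 (342195 to 342725, plus strand) 1444 against 626 and 1133 against 1721 reads at 1 SNP gave 0.30 ± 0.29 (SE, n = 2), which was 0.26 in Cg pair 1. On scaffold 5 (484784 to 485607, plus strand) 1105 against 1563 and 570 against 1602 reads at 1 SNP gave -1.0 ± 0.12 (SE, n = 2), and the gene differed by -0.80 in Cg pair 1.

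A difference near the median can hide directions that disagree. On scaffold 4 (2870727 to 2872237, minus strand) the first accession had 73 reads and the second 517 in direction 1, and 688 and 155 in direction 2. The directions gave -3.43 and 2.76, so the father's allele was the more abundant in both, and the accession difference was only -0.33 ± 3.09 (SE, n = 2). All 10 of its well-read SNPs lay between -0.80 and 0.30.

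Genes past 2-fold in one Cg pair were about as often past 2-fold in the other as all shared genes were. Members of both Cg pairs numbered 3698, which is 74.7% of those of pair 2 and 33.5% of those of pair 1. In these genes, 1354 were past 2-fold in pair 2 (36.6%) and 488 in pair 1 (13.2%), and 205 were past 2-fold in both. These were 15.1% of the genes past 2-fold in pair 2, beside 13.2% of all shared genes, and 42.0% of those past 2-fold in pair 1, beside 36.6%. Spearman's rho between the sizes in the pairs was 0.03 over the 3698 genes. Of the 298 genes called in pair 2, 210 were members in pair 1, where their median size was 0.29 and 29 (13.8%) were past 2-fold, a share near the 13.2% of all shared genes. Only 7.46% of the exonic SNPs of pair 2 members were also exonic SNPs in the table of pair 1.

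The authors' deposited table carries a call named dominance for each gene, which was true for 2304 of the 4948 members (46.6%). In that table it was true only where the ratio of the alleles lay on opposite sides of 0.5 in the directions. Of the 298 genes called by edgeR, 293 (98.3%) carried the authors' deposited call. Of the 1857 genes past 2-fold in either sense, 1466 (78.9%) carried it. Both the call and the test draw on the allele reads of the same directions, so these shares are no independent check. Of the genes with that call, 12.7% passed edgeR's test.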

How the data were processed

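The authors deposited tables named by species and number. Per the file headers, they hold read counts at SNPs for the mother's and the father's allele in cross directions 1 and 2. The headers name no accession, and the labels name 1 Co cross for both Co tables. The 4 allele columns are raw counts, deposited without normalization. Per the submitters' processing notes, the tools used included Trimmomatic, Bismark and Bowtie2, for which no version or role is stated. How RNA reads were aligned, SNPs called, genes annotated and repeat runs combined, and on which genome build, no source used here states. Another 23 columns of the Cg pair 2 table and 24 of each other table were not used. Leaf and bisulfite samples were not analysed here.

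The species of a table was read from its name, and no column could be tied to a named sample. A SNP absent from a direction counted as 0 reads there. Exonic counts were summed per gene, with the interval listed first, or second where that was empty. The accession difference was computed with 0.5 added to each sum. The parental offset was the median over members of the mean log2 maternal to paternal ratio (0.61 in Cg pair 2). edgeR 4.0.16 in R 4.3.3 fitted accession with direction as a block on the 4 columns of a table, with that offset on the maternal columns. p-values were adjusted by Benjamini-Hochberg over all members of a table and called at 0.05. Nothing in the labels says whether libraries came from separate plants, so p-values measure only the spread between the directions in these libraries. The printed SE is the deviation of either direction from their mean. A gene's own parental bias beyond the common offset also sets its directions apart. The SE and the p-values therefore mix that bias with the spread between libraries. Intervals on shares are 95% Wilson intervals, and the floor for a count of 0 is 3 reads. The fit was tested on simulated data with 50 genes at each true difference. With a noise SD of 0.8 per direction, it called 46% of genes at -2 and 28% at 2 on the log2 scale. With a noise SD of 0.3 it called 86% at either. It called 98% to 100% at -4 and 4, and 0.0211% to 0.105% of genes without a difference. Reads were drawn per gene, so reads counted at several SNPs and SNPs read from 1 accession only were not simulated. The noise was normal, and 4748 of 4948 genes were set at a difference of 0. The members of Cg pair 2 instead had a median of -0.39, and the deviation of their directions from the mean had an SD of 0.95, counting error included. The shares called in the simulation therefore hold for its settings only.

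The genes named are, among called genes with 50 or more reads in each direction, 3 or more exonic SNPs and agreeing directions, the 8 with the largest difference towards each accession. To these were added the 6 members with the most reads and, of the 100 with the most reads, the 4 closest to the median. A further rule, for genes called in both Cg pairs, was void since pair 1 had 0 calls, and no gene could be matched to a list of names. Further genes named for agreeing SNPs, and the 10 called towards the first accession, were chosen after their values were seen. Members, lists and rules were chosen with earlier results of these data known.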

Additional observations from a re-analysis of the deposited data

Results flagged for a closer look

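SNPs outside annotated exons, which no comparison above used, gave a signal of their own. In 710 genes such SNPs had at least 20 reads in each direction. Their accession difference had a median of 0.50 on the log2 scale, towards the first accession, where exonic SNPs had a median of -0.39. Of these genes, 289 exceeded 2-fold towards the first accession and 176 towards the second. Among the 583 that were also members, 50.9% had the same sign at exonic and other SNPs, and Pearson's r between the values was 0.05 over genes. Of 21 genes called from exonic SNPs, 10 had the same sign outside exons and 7 exceeded 2-fold the same way. What sets the SNPs outside exons apart was not tested.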

How the results depend on the processing

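Of 4948 genes 298 were called (10 towards the first accession, 288 towards the second). The count moved by over 1.5 times with at least 10 reads in each direction (544 of 7176 tested), with 50 (70 of 2445) and with 1 (572 of 13900). Over the same 4948 genes it did so with the null at the median difference (181, of which 11 and 170) and with TMM factors (194, of which 18 and 176). It also did so without SNPs read from 1 accession only (10 of 4329) and with 5 or more exonic SNPs (1 of 2764). The last 2 were chosen after seeing the data. Without the replicate block of direction 259 genes were called, with DESeq2 268 and with the 2 to 1 dosage offset 240. With all SNPs 328 of 5514 were called, with the most-read SNP 326 of 2326 and with SNPs that had reads in both directions 263 of 4882. Where the number of genes tested differs, the counts alone do not give the change in the called share. At 10 reads the 544 included all 298, and TMM kept 186 of them. Leaving out a direction left no degree of freedom, so it gives values and no test. The alternative of SNPs with 1 gene interval was not run, since no SNP listed more than 1.

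The median difference of -0.39 was -0.30 with all SNPs, -0.49 with the most-read SNP or the median over SNPs, 0.00 at the median null by construction, -0.21 without SNPs read from 1 accession only and -0.20 with 5 or more SNPs. Leaving out a direction gave -0.45 to -0.36. The interquartile range of 1.49 was 2.09 at 1 read, 2.25 with the most-read SNP, 2.00 as the median over SNPs, 1.12 with 5 or more SNPs and 1.5 to 1.99 without a direction. Towards the first accession, the 6.57% past 2-fold became 9.02% at 10 reads, 4.13% at 50, 16.4% at 1, 8.85% with all SNPs, 12.7% around the median and 9.05% to 12% without a direction. Towards the second, the 31.0% became 26.1% at 50 reads, 35.9% at 1, 26.5% with all SNPs, 38.3% with the most-read SNP, 37.4% as the median over SNPs, 23.0% around the median or without SNPs read from 1 accession only, 20.4% with 5 or more SNPs and 31.9% to 34.3% without a direction. Pseudocounts of 1 and 0.1 left each of these values within the spread between directions.

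Alternatives for single genes were run for the named genes, and there signs turned in genes that were not called. The interval on scaffold 7 from 8210379 was 0.54 with its most-read SNP, 0.32 around the median, 0.46 without direction 2 and -0.61 without direction 1. Scaffold 4 from 6080636 was 0.12 with its most-read SNP. Scaffold 4 from 2870727 was 0.05 around the median and 2.76 without direction 1, against -3.43 without direction 2, and scaffold 5 from 10296797 was 0.06 around the median. The cause was not tested. Over the named genes that were called, 205 of the tested alternatives kept the call and 59 did not, all with the same sign. Leaving out a direction kept the sign in 44 of 44. That count is no check, since these genes were named for agreeing directions or after their values were seen. Depth limits single genes: at a median of 51 reads in direction 1 and 80 in direction 2, counting alone gave a median standard error of 0.30.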
